A study of Mus musculus with 6 samples.

Results

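The CD28 receptor family and its B7 ligands were followed at the RNA level in mouse CD8+ T cells cultured with or without an LSD1 inhibitor. The 10 members are a list of gene symbols, 5 receptors (Cd28, Icos, Ctla4, Pdcd1 and Btla) and 5 ligands (Cd80, Cd86, Cd274, Pdcd1lg2 and Icosl), and each was found by its symbol among the 16281 genes of the count table. All 10 passed edgeR's filter on low counts and were among the 11698 genes tested. RNA was sequenced from spleen CD8+ T cells of OT1 mice, C57BL/6 animals with the transgene Tg(TcraTcrb)1100Mjb, which encodes a T-cell receptor for an ovalbumin peptide. Every culture was activated for 48 h with anti-CD3 at 2 μg/ml and anti-CD28 at 2 μg/ml, with IL-2 at 20 ng/ml, and then expanded in IL-2 for 3 days, to culture day 5. In the GSK group (n = 3) GSK2879552, an irreversible inhibitor of the histone demethylase LSD1, was present at 0.5 μM, and the Veh group (n = 3) received vehicle. The activating antibody binds the CD28 protein itself, in both groups, and antibody took the place of B7 ligands on antigen-presenting cells, so the values describe expanded T cells after antibody stimulation.

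A T cell needs a signal through its T-cell receptor and a costimulatory signal, and the best known costimulatory signal comes from CD28 when it binds CD80 or CD86. CTLA-4 binds the same ligands with higher affinity and restrains the response, ICOS is an induced costimulatory receptor with its own ligand, and PD-1, bound by PD-L1 or PD-L2, recruits phosphatases that dampen signalling from the T-cell receptor and CD28. The ligands are best known from antigen-presenting cells, but activated T cells make several of them too.

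The total count per sample lay between 18288447 and 18918811 in Veh and between 19149909 and 19846720 in GSK. The members' counts ran from 84 to 7203 per sample, so counting error was largest for Cd86, Icosl and Pdcd1lg2. Cd8a had 9427 to 10964 counts per sample and Cd4 had 9 to 34, while Zbtb7b, the other CD4 T-cell marker listed, had 642 to 940. Of 7 CD8 T-cell markers listed, 3 were lower in GSK at an adjusted p under 0.05 by edgeR's quasi-likelihood test. These were Cd3d, Cd3e and Cd3g (log2 fold changes -0.16, -0.23 and -0.38). Cd2 and Lck were higher (0.15 and 0.13), and Cd8a and Cd8b1 did not pass. Over all genes tested, 15.5% were lower and 16.6% higher at this adjusted p. The RNA of Kdm1a, the gene for LSD1, was 92.8 ± 5.45 CPM in Veh and 87.1 ± 3.54 CPM in GSK (SD, n = 3; adjusted p = 0.22, edgeR's quasi-likelihood test), where CPM is the count per 1000000 counts of the sample's TMM-scaled total. The inhibitor acts on the protein, so this level does not check the treatment.

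Of the 10 members, 3 were called lower in GSK (Ctla4, Pdcd1 and Cd86) and 0 were called higher by edgeR's quasi-likelihood test or by DESeq2. A gene was called at an adjusted p under 0.05 with a fold change over 1.5, and 4.09% of all genes tested were called lower and 2.22% higher. At the adjusted p alone, Cd28 was also lower and Icos, Cd80 and Icosl were higher, which makes 4 members lower, beside 15.5% of all genes tested, and 3 higher, beside 16.6%. Btla, Cd274 and Pdcd1lg2 did not pass the test, and at an unadjusted p under 0.05 the counts were 5 higher and 4 lower, beside 21.8% and 21.2% of all genes tested. The GSK samples all lay below the Veh samples for 4 members and all above for 3, and the groups overlapped for the other 3. Over all genes tested, 23.0% had every GSK sample below every Veh sample and 23.7% had every GSK sample above. The median log2 fold change was 0.20 over the members and -0.0039 over all genes tested. Both members that fell most were inhibitory receptors, but the family did not move as one, since Icos, Cd80 and Icosl were higher at the adjusted p alone. The third inhibitory receptor, Btla, did not pass in either direction. These are RNA levels of whole cultures, in which fewer cells with a transcript and less of it per cell cannot be told apart.

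**Figure D1:**
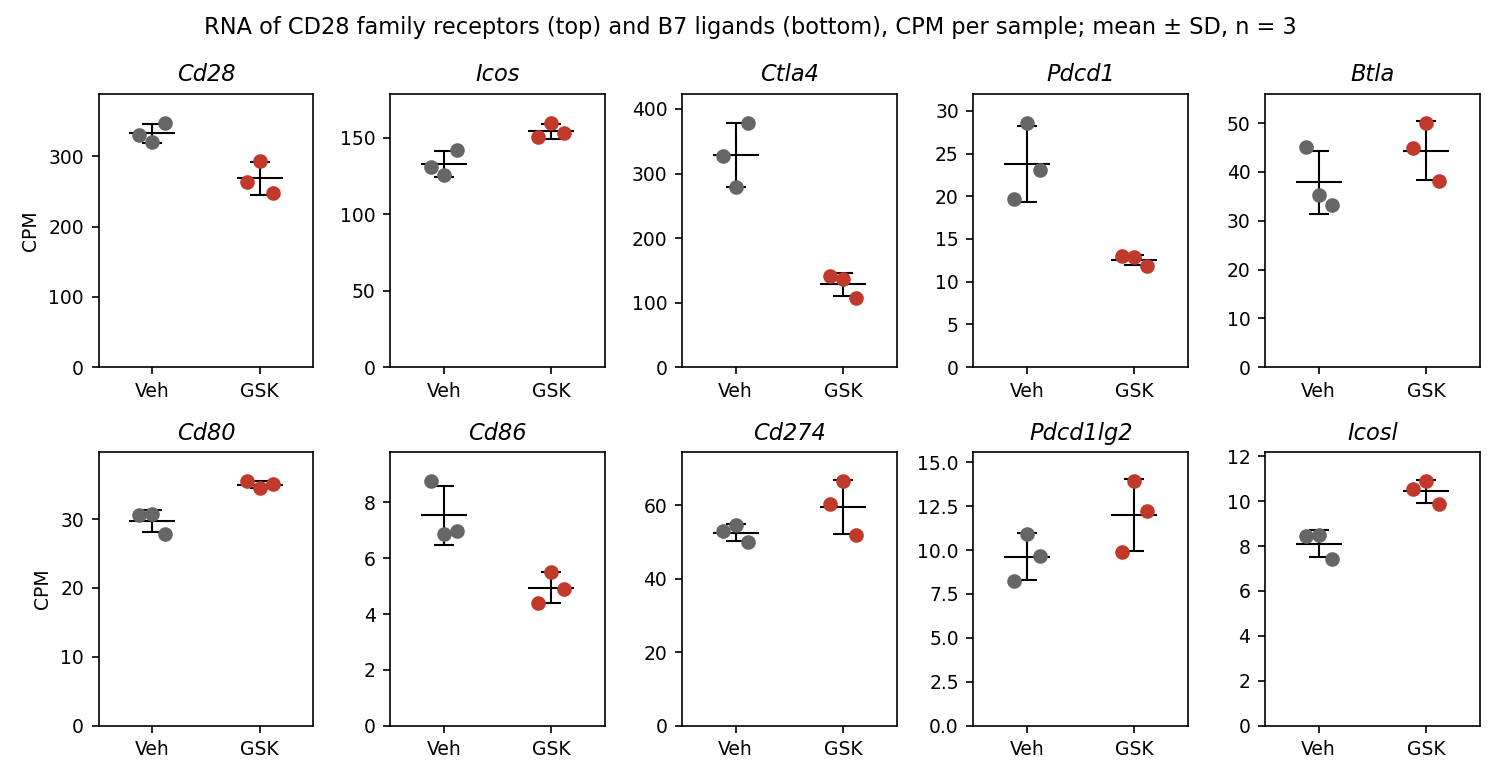
RNA level of each member in CPM (vertical axis, starting at 0 and scaled separately per gene) in the 3 Veh and 3 GSK samples, with receptors in the upper row and ligands in the lower. Points are samples and bars the mean ± SD. Ctla4 fell from 328 to 128 CPM and Pdcd1 from 23.8 to 12.6 CPM, while the points of Btla, Cd274 and Pdcd1lg2 overlapped between groups.

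Among the costimulatory receptors, Cd28 was modestly lower and Icos modestly higher. Cd28, the receptor of the primary costimulatory signal, measured 330, 320 and 348 CPM in the Veh samples and 264, 294 and 248 CPM in the GSK samples. Every GSK sample lay below every Veh sample. The mean went from 333 ± 13.9 to 269 ± 23.2 CPM (SD, n = 3), a log2 fold change of -0.31 (standard error 0.058, 95% interval -0.44 to -0.18, adjusted p = 0.0020 by edgeR's quasi-likelihood test). That interval lies wholly within a 1.5-fold change. Icos encodes the costimulatory receptor that activated T cells gain and that signals through phosphoinositide 3-kinase. It measured 131, 126 and 142 CPM in Veh and 150, 160 and 153 CPM in GSK. The groups were apart in the opposite direction from Cd28, with means of 133 ± 8.45 and 154 ± 4.91 CPM and a log2 fold change of 0.22 (standard error 0.052, 95% interval 0.10 to 0.33, edgeR adjusted p = 0.0072).

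The receptor for which GSK and Veh differed most was Ctla4, the CD28 relative that competes for CD80 and CD86. Its counts were 6019, 5210 and 7203 in Veh and 2685, 2697 and 2054 in GSK, which gave 327, 279 and 379 CPM against 141, 136 and 107 CPM. The lowest Veh sample was well above the highest GSK sample. In CPM the Veh samples were spread wider, but the coefficient of variation was similar (15.1% in Veh and 14.4% in GSK). The mean was 328 ± 49.5 CPM in Veh and 128 ± 18.4 CPM in GSK (SD, n = 3), which is 2.56-fold lower in GSK (log2 fold change -1.36, standard error 0.16, 95% interval -1.77 to -0.94, adjusted p = 0.0034 by edgeR's quasi-likelihood test). By fold change it ranked 84 among all genes lower in GSK. Leaving out each sample in turn kept the log2 fold change between -1.46 and -1.24.

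Pdcd1, which encodes PD-1, was expressed at a far lower level. Its counts were 362, 533 and 438 in Veh and 247, 254 and 228 in GSK, or 19.7, 28.6 and 23.0 CPM against 13.0, 12.9 and 11.9 CPM. The groups did not overlap, and the GSK samples lay close together, with a coefficient of variation of 4.72% against 18.9% in Veh. The mean went from 23.8 ± 4.5 to 12.6 ± 0.594 CPM, 1.89-fold lower in GSK (log2 fold change -0.92, standard error 0.12, 95% interval -1.19 to -0.65, edgeR adjusted p = 2.5e-04). Without Veh replicate 2, the highest Veh sample, the log2 fold change was -0.76. Btla, the receptor that binds the TNF receptor family member HVEM instead of a B7 protein, measured 45.2, 35.2 and 33.2 CPM in Veh and 44.9, 50.1 and 38.1 CPM in GSK. These ranges overlapped through Veh replicate 1. The log2 fold change of Btla was 0.23 (95% interval -0.094 to 0.55, edgeR adjusted p = 0.25), and this interval includes no change and ends well above the estimates for Pdcd1 and Ctla4. Without Veh replicate 1 the log2 fold change was 0.38 and passed (edgeR adjusted p = 0.0263).

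The sequences just upstream of the 2 inhibitory receptor genes that fell are shown, since these are the members whose RNA differed most between the groups. Each is the 250 bases before the gene's start in RefSeq (GRCm38.p6), printed 5′ to 3′ on the gene's strand. Capitals mark matches to the letters searched, on either strand.
Ctla4, chr1:60908775-60909024, plus strand: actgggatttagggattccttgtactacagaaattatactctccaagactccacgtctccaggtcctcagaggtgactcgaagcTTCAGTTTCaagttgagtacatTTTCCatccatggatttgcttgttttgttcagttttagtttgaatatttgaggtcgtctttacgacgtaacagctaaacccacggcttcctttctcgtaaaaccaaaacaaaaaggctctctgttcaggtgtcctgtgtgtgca
Pdcd1, chr1:94052554-94052803, minus strand: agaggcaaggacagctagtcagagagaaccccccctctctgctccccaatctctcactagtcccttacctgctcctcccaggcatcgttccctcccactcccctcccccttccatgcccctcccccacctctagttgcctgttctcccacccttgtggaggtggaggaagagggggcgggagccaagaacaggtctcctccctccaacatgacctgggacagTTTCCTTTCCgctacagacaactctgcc
The Ctla4 window is 42.4% G and C and the Pdcd1 window 60.4%. The letters searched, on both strands, were the NFAT core GGAAA, the AP-1 site TGANTCA, the STAT site TTCNNNGAA, the T-box half-site GGTGTGA, the E-box CACGTG and the IRF repeat GAAANNGAA. NFAT and AP-1 act below the T-cell receptor and CD28, STAT factors below cytokines such as IL-2, and T-box factors include T-bet and Eomes. Ctla4 had GGAAA, read as TTTCC on this strand, from base 144 to base 140 before the start, and the IRF repeat from base 166 to base 158. Pdcd1 had GGAAA at 2 places side by side, from base 28 to 24 and from base 23 to 19. GGAAA is short and occurred in 55.6% of the 32851 RefSeq windows of this length, and the IRF repeat occurred in 7.13%. AP-1, STAT, T-box and E-box letters, found in 6.75%, 7.02%, 3.33% and 6.02% of all windows, were not in either of these windows. RefSeq windows were matched for 7 of the 10 members, all but Cd28, Icos and Cd86. Windows follow the transcript start that the RefSeq window table uses, which for Btla, Cd80 and Cd274 lies inside the gene's full span, so their windows are not upstream of the whole gene. Of the other matched members, Btla and Cd274 held the IRF repeat, Cd80 the AP-1 letters, and Cd274 and Pdcd1lg2 GGAAA. Icosl held none of the 6. These are matches of letters, and no binding was measured here.

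Cd28, Ctla4 and Icos lie next to each other on chromosome 1 and all read from the plus strand, but their RNA moved in different directions. In GRCm38, Cd28 spans chr1:60746388-60773359, Ctla4 chr1:60909025-60915832 and Icos chr1:60960773-61000322. Ctla4 thus starts 136 kb after the end of Cd28 and ends 44.9 kb before Icos. The genes beyond this cluster, Gm11578 and Pard3b, were too low to test. Pdcd1 lies apart on the same chromosome (chr1:94038305-94052553, minus strand), where Gal3st2c on one side was too low to test and Fam174a, on the other side and 1260 kb away, had a log2 fold change of -0.23 (edgeR adjusted p = 0.232). Cd274 and Pdcd1lg2, the PD-1 ligand genes, are also neighbours (chr19:29362107-29388095 and chr19:29410919-29472927, both plus strand), 22.8 kb apart. Btla, Cd80 and Cd86 are on chromosome 16 (chr16:45223705-45252895 and chr16:38457430-38495958 on the plus strand, and chr16:36568956-36666158 on the minus strand), and Icosl is on chromosome 10 (chr10:78069368-78079525, plus strand). Cd80, Cd274 and Icosl overlap other annotated genes (Gm8590, Gm41453 and Ck-ps3; Plgrkt and Gm36043; and Gm51775), and the sources used here do not give the strand setting of the counting, so their counts are less certain. Of the tested genes next to the ligands and Btla, only Atg3, beside Btla, passed at the adjusted p alone (log2 fold change 0.20, edgeR adjusted p = 0.0079).

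Of the ligands, Cd86 was called lower and Cd80 was slightly higher. Cd86 encodes the ligand that antigen-presenting cells carry at rest and Cd80 the one that activation brings up, and both bind CD28 and CTLA-4. Cd86 counts were 161, 128 and 133 in Veh and 84, 109 and 94 in GSK, or 8.76, 6.87 and 6.99 CPM against 4.41, 5.52 and 4.90 CPM. The groups did not overlap, but the gap between them was narrow. The mean went from 7.54 ± 1.06 to 4.94 ± 0.554 CPM, which was 1.52-fold lower, just past the fold threshold (log2 fold change -0.61, standard error 0.16, 95% interval -0.95 to -0.26, edgeR adjusted p = 0.0111). The call was lost without Veh replicate 1 (log2 fold change -0.49, edgeR adjusted p = 0.0607) or without GSK replicate 1 (-0.53, adjusted p = 0.0524).

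Markers of dendritic cells and macrophages, for which Cd86 is typical, had a lower sum in GSK, carried mostly by Itgax. The summed level of the 10 of 12 listed markers in the table was 6.60 to 9.63 CPM in the Veh samples and 3.18 to 4.91 CPM in the GSK samples. Of the 4 that could be tested, Itgax, which encodes CD11c and is also made by activated CD8+ T cells, was called lower (log2 fold change -1.37, edgeR adjusted p = 0.0023). The other 3 did not pass, with log2 fold changes of -1.30 for Lyz2, -0.70 for Itgam and 0.033 for Zbtb46 (edgeR adjusted p = 0.29, 0.073 and 0.96). The defining markers Cd14, Adgre1 and Clec9a had at most 3 counts in any sample and Csf1r had 1 to 5. The part of such cells in the Cd86 result was not tested. B-cell markers summed to 5.94 to 8.0 CPM in Veh and 5.88 to 7.04 CPM in GSK, and nearly all of it was Cd79b (mean 6.51 and 4.90 CPM, edgeR adjusted p = 0.070). The other 7 were too low to test, with at most 11 counts in a sample, and each had a higher mean in GSK, such as Ms4a1 with 0, 2 and 2 counts in Veh and 4, 6 and 8 in GSK.

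Cd80 measured 30.6, 30.7 and 27.9 CPM in Veh and 35.5, 34.5 and 35.0 CPM in GSK, and the GSK values were all higher than the Veh values. For Cd80 the log2 fold change was 0.24 (standard error 0.068, 95% interval 0.090 to 0.38, edgeR adjusted p = 0.0178), and the adjusted p rose to 0.0785 without Veh replicate 3 and to 0.0678 without GSK replicate 1. Icosl, the gene of the ICOS ligand, measured 8.43, 8.48 and 7.41 CPM in Veh and 10.6, 10.9 and 9.85 CPM in GSK, again without overlap. Its log2 fold change was 0.36 (standard error 0.12, 95% interval 0.11 to 0.62, edgeR adjusted p = 0.0313). This was the least stable of the members that passed, since it failed in 5 of the 6 fits without 1 sample (adjusted p from 0.052 to 0.112) and in DESeq2 (adjusted p = 0.0824).

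The ligands of PD-1 did not fall with their receptor. Cd274, the gene of PD-L1, measured 53.0, 54.6 and 49.98 CPM in Veh and 60.4, 66.5 and 51.9 CPM in GSK, with GSK replicate 3 inside the Veh range. The log2 fold change of Cd274 was 0.18 (95% interval 0.0060 to 0.36, edgeR adjusted p = 0.105), and it passed without GSK replicate 3 (0.27, edgeR adjusted p = 0.00772). Pdcd1lg2, the gene of PD-L2, measured 8.27, 10.9 and 9.67 CPM in Veh and 9.87, 13.9 and 12.2 CPM in GSK. The ranges overlapped, with a log2 fold change of 0.32 (95% interval 0.0055 to 0.63, edgeR adjusted p = 0.11).

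**Figure D2:**
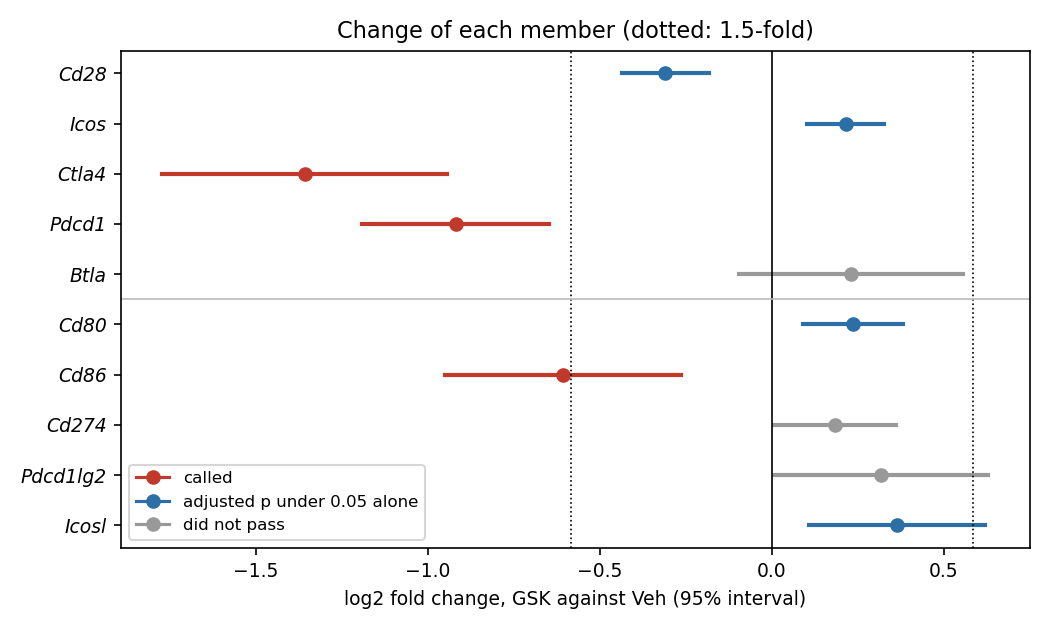
Log2 fold change of each member, GSK against Veh (horizontal axis), with receptors above the grey line and ligands below it. Points are estimates and bars 95% intervals derived from edgeR's test, and dotted lines mark a 1.5-fold change. Colours separate called members, those past the adjusted p alone and those that did not pass. The intervals of Ctla4 and Pdcd1 lie wholly past 1.5-fold, and that of Cd86 crosses the dotted line. These intervals are not adjusted for the number of genes. In edgeR's test against a fold of 1.5 (glmTreat), neither Ctla4 (adjusted p = 0.0933) nor Pdcd1 (0.145) passed.

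To compare levels between genes, each CPM was divided by the gene's exon length, and the levels are given as CPM per kilobase. In Veh, Ctla4 had the highest level of the family (141 ± 21.3), followed by Cd28 (54.3 ± 2.27) and Icos (38.8 ± 2.46), with no overlap between these 3. Cd274 (14.5 ± 0.644), Pdcd1 (12.3 ± 2.33) and Btla (11.2 ± 1.90) came next, and their neighbouring ranges overlapped. Below them stood Cd80 (8.03 ± 0.441), Pdcd1lg2 (4.91 ± 0.682), Cd86 (2.06 ± 0.289) and Icosl (1.75 ± 0.130). In GSK, the level of Ctla4 (55.0 ± 7.9) was close to those of Icos (45.01 ± 1.43) and Cd28 (43.9 ± 3.79), and the ranges of the 3 receptors overlapped. Pdcd1 (6.51 ± 0.308) came below Btla (13.1 ± 1.76) and Cd80 (9.46 ± 0.132), and its range overlapped that of Pdcd1lg2 (6.12 ± 1.04). Icosl (2.26 ± 0.113) came above Cd86 (1.35 ± 0.151). The order at the top depends on the length used, since only 654 of the 6122 exon bases of Cd28 are coding. By coding length, the mean level in CPM per kilobase was 509 for Cd28 and 491 for Ctla4 in Veh, and 411 for Cd28, 231 for Icos and 192 for Ctla4 in GSK.

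The receptors' RNA was divided differently in the 2 groups. The summed level of the 5 receptors was 256.1, 234.1 and 282.4 CPM per kilobase in the Veh samples and 167.4, 174.5 and 148.5 in the GSK samples. Ctla4 made up 54.9%, 51.3% and 57.5% of this sum in Veh and 36.2%, 33.6% and 31.0% in GSK. Icos made up 14.9%, 15.6% and 14.7% in Veh and 26.2%, 26.7% and 30.0% in GSK, and Cd28 went from 21.2 ± 1.13% to 26.8 ± 0.948%. Cd28 had thus a lower level and a larger share in GSK. The costimulatory receptors Cd28 and Icos together were 36.3 ± 1.62% of the receptors' RNA in Veh and 54.5 ± 2.71% in GSK. With raw counts, which use no length, the share of Cd28 and Icos was 54.5 ± 1.81% and 69.6 ± 2.15%. Among the ligands, Cd274 held the largest share in each sample, 46.1% to 46.7% in Veh and 42.8% to 48.0% in GSK. Cd86 was 5.74% to 7.63% of the ligands' RNA in Veh and 3.46% to 4.00% in GSK, and Icosl was 5.39% to 5.82% in Veh and 6.10% to 6.57% in GSK, each without overlap. The shares follow from the levels above and were given no test of their own.

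**Figure D3:**
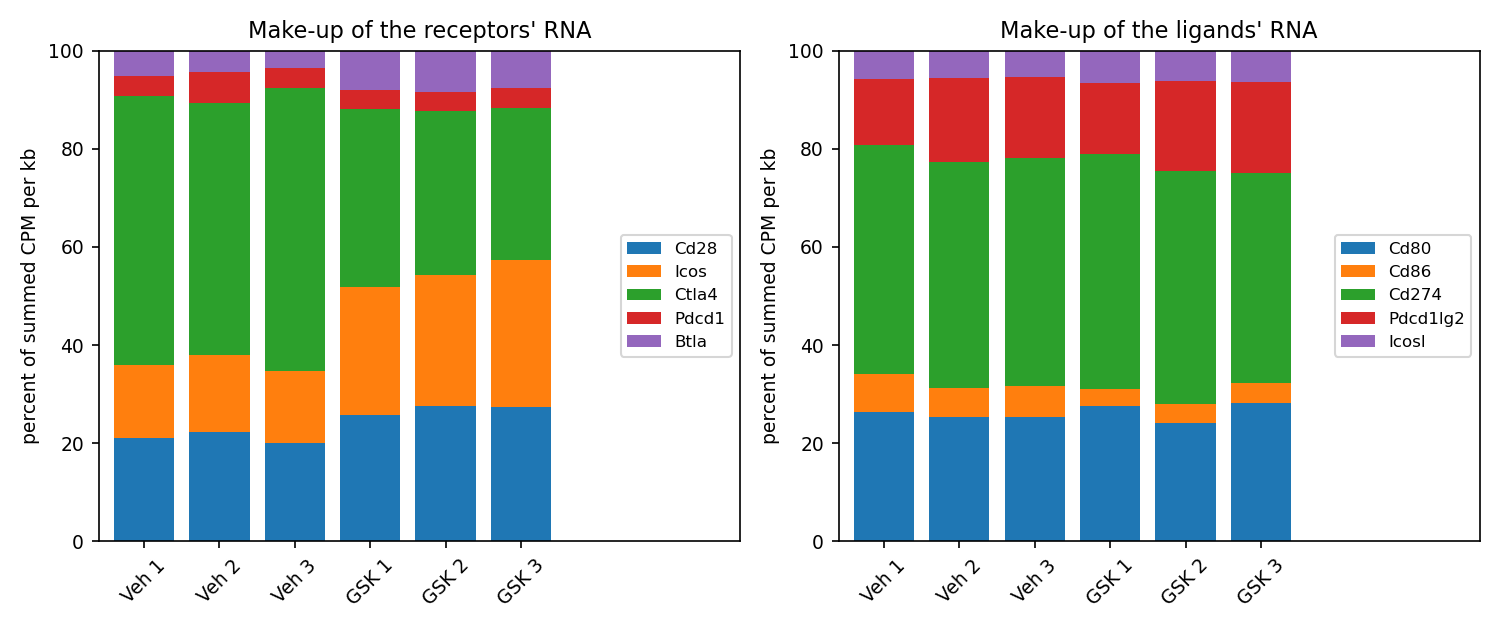
Share of each member in the summed CPM per kilobase of the 5 receptors (left) and of the 5 ligands (right), in percent, for each of the 6 samples. Each bar adds up to the whole. The green Ctla4 segment takes 51.3% to 57.5% of the receptors' RNA in Veh and 31.0% to 36.2% in GSK, while among the ligands the Cd86 segment is smaller in GSK and the Icosl segment slightly larger.

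Ratios of counts within a sample do not depend on the scaling between samples, and 9 pairs of members were compared. Ctla4 had about as many counts as Cd28 in Veh, with ratios of 0.993, 0.872 and 1.09, and fewer in GSK, with 0.534, 0.465 and 0.432. The ratio of Ctla4 to Icos differed most, at 2.50, 2.23 and 2.66 in Veh and 0.938, 0.854 and 0.700 in GSK, which is 2.98-fold lower. Icos had more counts relative to Cd28 in GSK (0.570, 0.544 and 0.617) than in Veh (0.398, 0.392 and 0.409). These receptors share ligands or signalling routes, and the groups did not overlap for any of the 3 ratios.

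The count of Pdcd1 relative to that of its ligand gene Cd274 was also lower in GSK. Pdcd1 had 0.371, 0.524 and 0.461 counts per count of Cd274 in Veh and 0.215, 0.193 and 0.229 in GSK, 2.11-fold lower. Cd80 had 3.50, 4.48 and 3.98 counts per count of Cd86 in Veh and 8.05, 6.26 and 7.15 in GSK, 1.79-fold higher. The ratios of Pdcd1 to Cd28 and of Btla to Cd28 did not overlap either, with log2 differences of -0.59 and 0.55, GSK against Veh. Pdcd1 to Ctla4 and Cd274 to Pdcd1lg2 overlapped between the groups (log2 differences 0.45 and -0.14, two-sided exact permutation p = 0.3 and 0.5). For each of the other 7 ratios the two-sided exact permutation p was 0.1, the smallest that 3 samples against 3 allow. It was 0.129 after Benjamini-Hochberg adjustment over the 9 pairs, so this design cannot pass 0.05 by that test. The 9 pairs reuse the same members, so their ratios follow from the counts above and are not separate results. Of single genes tested, 23.0% had every GSK sample below every Veh sample and 23.7% above. The share over all pairs of genes was not computed.

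**Figure D4:**
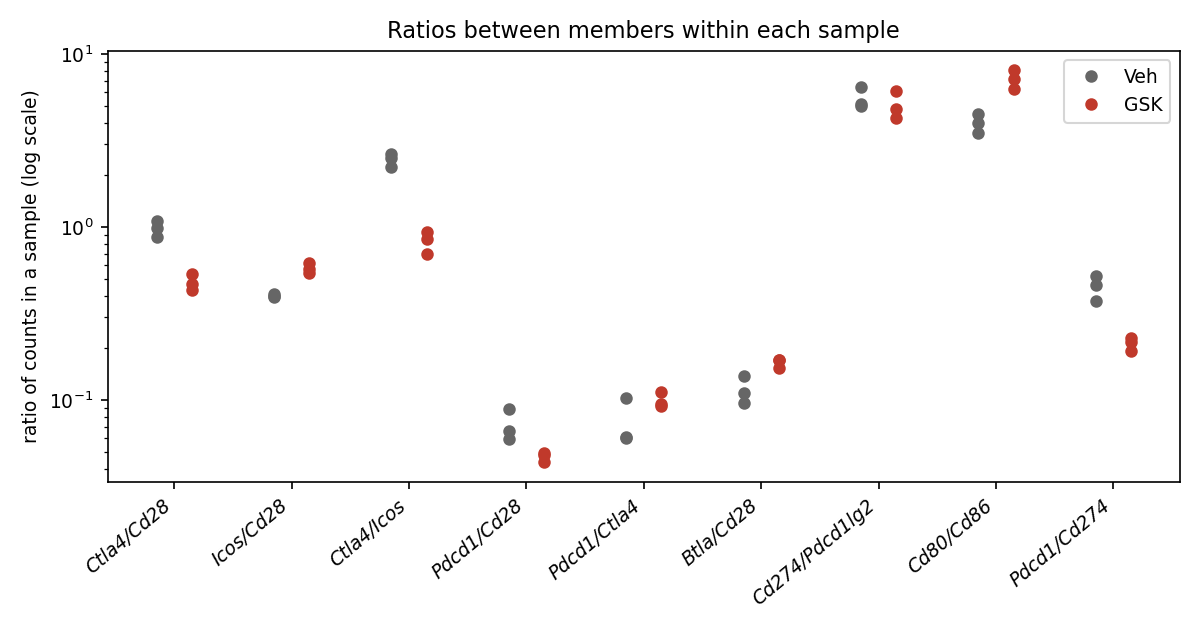
Ratio of the raw counts of 2 members within each sample (vertical axis, log scale) for 9 pairs, with the 3 Veh samples in grey and the 3 GSK samples in red. The points separate for 7 pairs, most widely for Ctla4/Icos (2.23 to 2.66 in Veh, 0.700 to 0.938 in GSK). They overlap for Pdcd1/Ctla4 and Cd274/Pdcd1lg2. The pairs reuse the same members, so the 7 are not separate results.

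The other genes of the pathway were taken from 5 lists, to be read beside the 2.22% of all genes tested called higher and 4.09% called lower. Of 15 other ligands and receptors related to these families, 13 were tested (Cd276 was too low and Vtcn1 not in the table), and 2 were called higher and 0 lower by edgeR's quasi-likelihood test and by DESeq2. Rgmb, which encodes a further binding partner of PD-L2, had 42, 59 and 60 counts in Veh and 305, 336 and 276 in GSK. Its level rose from 2.87 ± 0.505 to 15.8 ± 1.32 CPM, and this was the largest change on any of the lists (log2 fold change 2.46, standard error 0.15, edgeR adjusted p = 3.9e-07). Cd200r1, an inhibitory receptor for CD200, rose from 4.56 ± 0.269 to 7.85 ± 0.566 CPM (log2 fold change 0.78, edgeR adjusted p = 0.0014). At the adjusted p alone, 3 of the 13 were higher and 3 lower, beside 16.6% and 15.5% of all genes tested. At an unadjusted p under 0.05, 4 were higher and 6 lower, beside 21.8% and 21.2%, and the median log2 fold change was -0.082.

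Downstream of the receptors, changes were small. All 24 listed genes of signalling below CD28 and ICOS were tested and 0 were called in either direction by edgeR's quasi-likelihood test or by DESeq2. Both the adjusted p alone and the unadjusted p found 7 higher and 6 lower of these 24, with a median log2 fold change of 0.046. Over all genes tested, the adjusted p found 16.6% higher and 15.5% lower, and the unadjusted p 21.8% and 21.2%. The 3 of these 24 signalling genes with the smallest p were all lower. Pik3r1, the regulatory subunit of the kinase that CD28 and ICOS recruit, had a log2 fold change of -0.48 (edgeR adjusted p = 4.5e-05), Malt1, a protease of the NF-kappaB route, -0.40 (1.7e-04) and Themis, a regulator of T-cell receptor signalling, -0.46 (3.1e-04). Of 14 phosphatases and other brakes, 1 was called lower. This was Dgka, a diacylglycerol kinase that limits Ras signalling, which went from 504 ± 47.0 to 313 ± 51.5 CPM (log2 fold change -0.69, edgeR adjusted p = 0.0199). The call was lost without Veh replicate 1 (-0.63, edgeR adjusted p = 0.0648), without GSK replicate 1 (-0.67, adjusted p = 0.0517) and, by the fold change, without GSK replicate 3 (-0.58, adjusted p = 0.0256). By the adjusted p alone, 2 of the 14 brakes rose and 3, with Dgka, fell, beside 16.6% and 15.5% of all genes tested.

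Among 16 genes that handle the members' protein or RNA, 15 were tested and 0 were called by edgeR's quasi-likelihood test or by DESeq2. By the adjusted p alone 1 rose and 3 fell, beside 16.6% and 15.5% of all genes tested. At an unadjusted p under 0.05 the counts were 3 and 4, beside 21.8% and 21.2%. Lrba, which protects CTLA-4 protein from lysosomal breakdown, was lower (85.3 ± 2.47 and 70.0 ± 2.50 CPM, log2 fold change -0.28, edgeR adjusted p = 0.0011). The RNA-binding proteins Zfp36l1 and Zfp36, which speed the decay of AU-rich transcripts, moved in opposite directions (log2 fold changes -0.42 and 0.27, edgeR adjusted p = 0.0018 and 0.0025). Of 28 transcription factors named for these genes, Eomes was called higher (204 ± 9.38 to 433 ± 17.7 CPM, log2 fold change 1.08, edgeR adjusted p = 1.5e-08) and its T-box relative Tbx21, which encodes T-bet, was called lower (44.5 ± 0.722 to 28.5 ± 2.39 CPM, -0.64, adjusted p = 4.6e-05). By the adjusted p alone, and with these 2 counted, 6 of the 28 rose and 8 fell, beside 16.6% and 15.5% of all genes tested. Ikzf2, a marker of regulatory T cells, in which Ctla4 is typically high, was lower (log2 fold change -0.71, edgeR adjusted p = 3.7e-04), whereas Foxp3, which defines them, was not different by the test (0.12, adjusted p = 0.82). The 2 markers of regulatory T cells summed to 29.0 to 31.0 CPM in Veh and 16.8 to 23.7 CPM in GSK. Most of this sum was Ikzf2 (mean 27.0 and 16.6 CPM), while Foxp3 had means of 3.26 and 3.55 CPM. The part of such cells in the Ctla4 result was not tested.

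**Figure D5:**
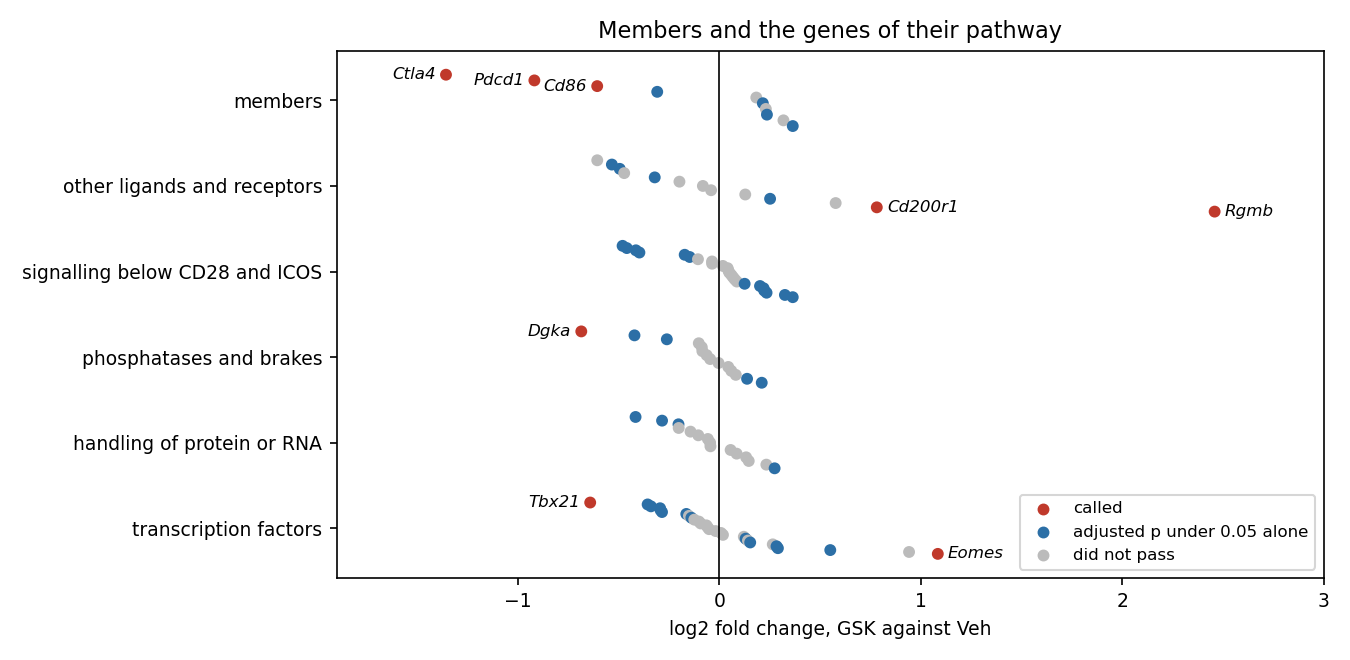
Log2 fold change, GSK against Veh (horizontal axis), of the 10 members and of the tested genes on the 5 pathway lists (rows). Each point is a gene, coloured by whether it was called, passed the adjusted p alone or did not pass, and called genes are named. Ctla4 at -1.36 is the lowest point and Rgmb at 2.46 the highest, and most pathway genes lie near 0.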

How the data were processed

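CD8+ T cells from the spleens of OT1 mice were studied by RNA sequencing (polyadenylated RNA, stranded libraries). The authors trimmed the reads with Trimmomatic, mapped them to GRCm38 with HISAT2 (version 2.1.0) and counted them per gene with HTSeq (version 0.11.2), and the deposited values are whole counts without normalization. The annotation release and the strand setting of the counting are not given in the sources used here. The authors also name Cufflinks (version 2.2.1) and DESeq2 (version 1.22.2), whose output was not used here.

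Groups followed the sample labels. Cells came from 3 mice according to the study, and whether a replicate number stands for a mouse is not given in the sources used here. From the deposited counts, GSK was compared with Veh by the quasi-likelihood test of edgeR 4.0.16 in R 4.3.3, with robust moderation, TMM factors and filterByExpr. The p-values of all 11698 genes tested were adjusted by Benjamini-Hochberg, and a call needed an adjusted p under 0.05 together with more than a 1.5-fold change. Replicates differed by more than sampling noise (chi-square per degree of freedom 3.95 to 9.02 within groups). The test was checked on simulated data.

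CPM used TMM-scaled totals. Levels per kilobase used the union of GENCODE exons, and coordinates and promoter windows came from RefSeq tables of GRCm38. Count ratios were compared by two-sided exact permutation tests in SciPy (version 1.17.1). The alternatives were DESeq2 (version 1.42.0), RLE factors, 2 other filters, the replicate block, no robust moderation, a test against a fold of 1.5, the adjusted p alone, leaving out each sample, a pseudocount of 0.5 for ratios, and RLE scaling for levels. The longest transcript and the coding length, as other lengths, were chosen after seeing the data, and a coding length from RefSeq proteins was not run.

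The members, pathway lists and markers were chosen with earlier results of these data known. All 10 members and their tested neighbours could be named, and of each pathway list the called genes or else the 3 with the smallest p, plus the 3 genes most like Ctla4 and the 3 most like Pdcd1, of which 1 is not reported here. Markers and untested neighbours were named beside the results they touch. Chromatin and flow cytometry data were not analysed here.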

Additional observations from a re-analysis of the deposited data

How the results depend on the processing

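Of 140 alternative values of the members' log2 fold changes, 121 kept their direction and their side of an adjusted p of 0.05, whatever the fold. Another 17 no longer passed, 2 newly passed and none reversed. The 140 include the 10 values of the adjusted p alone, which repeat the main fit and could not differ. At the adjusted p alone, 1941 genes were higher and 1819 lower, 7 of them members. A test against a fold of 1.5 (edgeR's glmTreat) found 69 higher and 65 lower and 0 members, with adjusted p = 0.0933 for Ctla4 and 0.145 for Pdcd1. DESeq2 called 234 genes higher and 416 lower, with 3 members. Without 1 sample, 224 to 291 genes were called higher, 403 to 547 lower and 2 to 3 members, the 2 being without Veh replicate 1 or GSK replicate 1. Across genes, samples with one number deviated from their groups with correlations of -0.052, -0.081 and 0.16, so the numbers were not taken as pairs. With the replicate block, 253 genes were called higher and 447 lower, with 3 members, and the block changed no member's call. All 63 alternative ratio differences kept their direction, which leaving out 1 sample cannot reverse where the groups do not overlap. Each moved by less than the spread between replicates, but leaving out 1 of 3 samples cannot exceed that spread. The size of these shifts is therefore no check of stability. By coding length, 5 of the 10 members kept their rank by level in Veh and 6 in GSK, and by longest transcript 6 in GSK. Of the members, Btla, Cd274, Cd80, Cd86 and Icosl passed or failed by which single sample was left out, and depth was least for Cd86, which rested on 84 to 161 counts per sample.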

Other observations

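The 3 genes whose pattern over the 6 samples was most like that of Ctla4, by the root mean square difference in log2 CPM from the Veh mean among 9604 genes, were Srgap3, Arrb1 and Mxi1 (0.102, 0.109 and 0.142). Srgap3 encodes a GTPase-activating protein, Arrb1 beta-arrestin 1, which uncouples G protein-coupled receptors, and Mxi1 an antagonist of Myc. The mean level of Arrb1 was 221 ± 18.8 CPM in Veh and 93.3 ± 18.2 in GSK (SD, n = 3), of Mxi1 76.6 ± 5.55 and 33.0 ± 4.05 CPM, and of Srgap3 13.6 ± 1.85 and 5.22 ± 0.192 CPM. Among those most like Pdcd1 were Gpr34, a G protein-coupled receptor gene (0.116, 19.2 ± 1.56 and 10.1 ± 1.25 CPM), and Stard10, a lipid transfer protein gene (0.151). The genes were chosen for this likeness, so no test of it was made.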
